A study of Rattus norvegicus with 10 samples.

Results

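The clock output genes of liver were described as a list of 10 names: the transcription factors Dbp, Tef, Hlf, Nfil3, Bhlhe40 and Bhlhe41, the clock repressor Ciart, the deubiquitinase Usp2, and the enzymes Alas1 and Por. Members were found by gene symbol, taking each probe set whose platform annotation gives exactly 1 symbol from the list. This gave 9 of the 10 genes, among 14217 genes named on the arrays, and 16 of 31042 probe sets. Ciart, which no such probe set names, has no expression values here and enters only the description of promoter windows. The genes were chosen by their levels and their co-variation over these same animals, among them the wide spread of Dbp. The spread and the co-variation of the members are therefore given as descriptions, with no test.

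Liver RNA of 10 rats was profiled, all males of the outbred Sprague-Dawley stock, with 1 Affymetrix 3' expression array per animal. The 5 exposed rats had short-term contact with effluent of bulk drug industries, and the 5 control rats did not. Age, dose, route and length of the exposure and the hour of sampling are not given in the sources used here. Values are log2 expression per probe set, normalized across arrays by the authors, so a probe set's level is placed among all probe sets only as a guide to its brightness, not to the amount of RNA. The arrays resembled one another, with correlations of 0.991 to 0.996 over all probe sets. Hepatocyte markers were bright, the median of the 7 measured standing above 99.9% of probe sets.

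In liver, the clock proteins CLOCK and BMAL1 bind E-boxes and drive a daily cycle of transcription. They switch on Dbp, which with its relatives Tef and Hlf forms the PAR bZIP family of activators. These bind D-box sequences in genes of detoxification, and in mice the expression of Alas1 and Por depends on them. Nfil3 (also called E4BP4) is a bZIP repressor that binds the same D-boxes and usually peaks when Dbp is low. Bhlhe40 and Bhlhe41 (also called DEC1 and DEC2) are repressors that compete for E-boxes.

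The 250 bases before the transcription start are printed here for the 4 genes that moved most closely together, Dbp, Tef, Usp2 and Alas1, and for Bhlhe40, which varied nearly as widely as Dbp but followed it less closely. Sequences are RefSeq's, build GRCr8, written 5' to 3' along the gene, with the E-box letters CACGTG in capitals.
Dbp (chr1:105312006-105312255, plus strand): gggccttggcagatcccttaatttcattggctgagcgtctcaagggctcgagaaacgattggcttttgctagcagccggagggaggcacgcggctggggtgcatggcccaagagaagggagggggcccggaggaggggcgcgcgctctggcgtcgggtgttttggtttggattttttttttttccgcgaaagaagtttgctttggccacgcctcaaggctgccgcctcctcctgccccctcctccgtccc
Tef (chr7:115206577-115206826, plus strand): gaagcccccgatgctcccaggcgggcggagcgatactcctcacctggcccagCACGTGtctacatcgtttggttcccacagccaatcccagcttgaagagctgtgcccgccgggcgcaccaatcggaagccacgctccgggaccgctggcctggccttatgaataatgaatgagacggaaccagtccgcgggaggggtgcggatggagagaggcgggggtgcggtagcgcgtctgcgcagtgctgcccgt
Usp2 (chr8:53310620-53310869, plus strand): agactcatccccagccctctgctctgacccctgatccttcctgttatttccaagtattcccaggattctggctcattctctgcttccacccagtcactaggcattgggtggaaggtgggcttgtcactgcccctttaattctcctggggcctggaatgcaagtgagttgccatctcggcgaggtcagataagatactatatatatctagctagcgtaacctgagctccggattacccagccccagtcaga
Alas1 (chr8:115768643-115768892, minus strand): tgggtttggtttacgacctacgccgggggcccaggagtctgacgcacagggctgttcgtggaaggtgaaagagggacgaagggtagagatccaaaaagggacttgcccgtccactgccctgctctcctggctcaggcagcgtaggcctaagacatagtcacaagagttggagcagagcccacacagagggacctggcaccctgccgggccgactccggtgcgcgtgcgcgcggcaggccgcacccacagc
Bhlhe40 (chr4:143174200-143174449, plus strand): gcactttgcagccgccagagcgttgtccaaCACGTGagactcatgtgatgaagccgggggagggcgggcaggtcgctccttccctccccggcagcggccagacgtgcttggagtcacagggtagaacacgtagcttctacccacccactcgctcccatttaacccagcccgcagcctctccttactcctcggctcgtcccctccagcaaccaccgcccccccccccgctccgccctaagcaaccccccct

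Of the 10 members, 9 had a promoter in the RefSeq table, and Hlf had none. CACGTG, which reads the same on both strands, was found in 4 of the 9 windows, those of Tef, Bhlhe40, Bhlhe41 and Ciart, and in 5.59% of the 33469 promoters of the table. It began 198 bases before the start of Tef, 220 before that of Bhlhe40 and 48 before that of Bhlhe41. Ciart held 3 copies, at 93, 35 and 21 bases. The E'-box CACGTT, on either strand, was found in 0 of the 9 windows and 4.07% of all promoters. The D-box, as TTATGTAA or TTACGTAA on either strand, was likewise found in 0 of the 9, against 0.932% of all. The ROR element letters TAGGTCA, on either strand, were found in Por alone, 217 bases before its start, against 2.26% of all promoters. These matches describe letters in the windows and not bound sites. Among the genes that moved together, the window of Tef held 1 copy of CACGTG and those of Dbp, Usp2 and Alas1 held 0. Sequence outside the windows was not searched, so whether these genes share an E-box was not tested.

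Dbp varied more between animals than nearly any other gene on the arrays. The 5 exposed rats read 7.28, 6.79, 8.65, 8.80 and 9.47, against 5.80, 6.50, 6.97, 8.67 and 9.34 in the 5 control rats, in the order of their replicate numbers. Exposed rats 3, 4 and 5 and control rats 4 and 5 were high, and the groups overlapped. The highest and lowest animals differed by 3.68 on the log2 scale, or 12.8-fold. Within groups the SD was 1.32, which is 10.3 times that of the median probe set (0.13) and above that of 99.9% of probe sets. The values left a gap between 7.28 and 8.65, with 5 animals on either side, and both sides held animals of both groups.

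**Figure D1:**
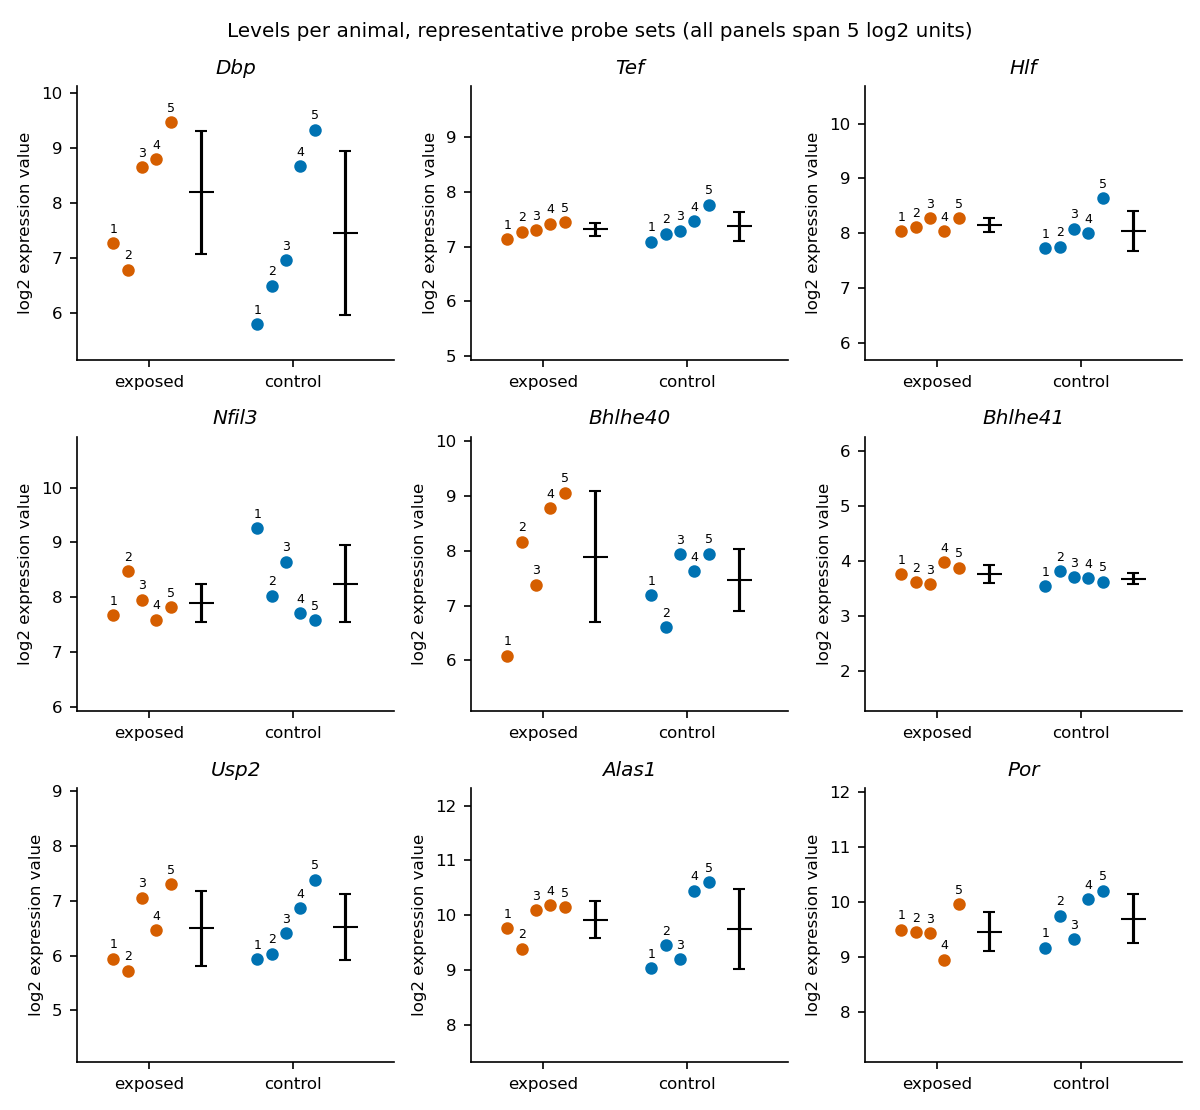
Log2 expression value of the 9 measured members (y axis) in each exposed and control rat (x axis), with numbers giving the replicate, and the mean and SD of each group of 5 as a bar beside the points. Dbp spans 3.68 log2 units over the 10 rats and Bhlhe40 2.97, while Bhlhe41 and Tef span 0.43 and 0.68, and no gene separates the groups.

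The other PAR bZIP genes covered narrower ranges. Each gene is represented by its brightest probe set on average. Tef read 7.13, 7.27, 7.29, 7.42 and 7.44 in exposed rats, against 7.09, 7.23, 7.29, 7.47 and 7.76 in control rats. The groups overlapped, with control rat 5 the highest. The range was 0.68, or 1.60-fold. A further Tef probe set ranged over 0.78 and followed the first with an r of 0.88, while the remaining one ranged over 0.35, with an r of 0.63. That dimmer probe set lay near the middle of all probe sets by level, above 46.8% of them.

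Hlf had 4 probe sets, of which 3 moved together and the last did not. The brightest read 8.04, 8.11, 8.28, 8.04 and 8.28 in exposed rats, against 7.72, 7.75, 8.08, 8.01 and 8.64 in control rats. Control rat 5 was the highest and control rats 1 and 2 the lowest, with the exposed rats between them. Its range was 0.92, or 1.89-fold, and the ranges of the next 2 were 1.40 and 1.17, with r of 0.98 and 0.87 to the brightest. The remaining probe set read 2.71 to 2.94 in exposed and 2.75 to 2.92 in control rats, a level above that of 2.45% of all probe sets, and had an r of -0.37 to the brightest. Which probe sets were too dim to measure is unknown, as the files give no detection calls.

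The repressors split. Nfil3 read 7.68, 8.47, 7.96, 7.59 and 7.82 in exposed rats, against 9.26, 8.03, 8.65, 7.72 and 7.58 in control rats. Control rat 1, the lowest of all for Dbp, was the highest for Nfil3, and control rat 5, second highest for Dbp, was the lowest. The range was 1.67, or 3.19-fold. Bhlhe40 read 6.08, 8.16, 7.38, 8.77 and 9.06 in exposed rats, against 7.18, 6.61, 7.94, 7.63 and 7.94 in control rats. Exposed rats held both ends of its range of 2.97, or 7.86-fold, and their SD was 1.20 against 0.57 in control rats, a difference that was not tested. Bhlhe41 read 3.58 to 3.97 in exposed and 3.54 to 3.81 in control rats, a range of 0.43 at a level above only 18.1% of probe sets.

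Usp2 removes ubiquitin from proteins and has a daily rhythm in liver. Its brighter probe set read 5.94, 5.72, 7.05, 6.46 and 7.30 in exposed rats, against 5.94, 6.03, 6.41, 6.86 and 7.38 in control rats. The range was 1.66, or 3.16-fold, and the other probe set had a range of 1.13 and an r of 0.95 to the first. Exposed rats 3, 4 and 5 and control rats 4 and 5 were again the 5 highest.

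Alas1 makes the first intermediate of heme and limits the rate of that pathway in liver, and Por passes electrons to the microsomal cytochromes P450, which carry heme. Alas1 read 9.77, 9.39, 10.10, 10.18 and 10.14 in exposed rats, against 9.03, 9.46, 9.20, 10.45 and 10.61 in control rats. Its 5 highest animals were the 5 highest for Dbp, and its range was 1.57, or 2.97-fold. Por read 9.50, 9.45, 9.44, 8.95 and 9.97 in exposed rats, against 9.17, 9.75, 9.33, 10.05 and 10.20 in control rats. Exposed rat 4, high for Dbp and Alas1, was the lowest of all for Por. Both Por probe sets gave this order of extremes, with ranges of 1.25 and 1.18 and an r of 0.98 between them.

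Co-variation was measured as Pearson's r between representative probe sets over the 10 rats, with group means removed so that a difference between the groups does not enter. Usp2 (r = 0.94), Alas1 (0.93) and Tef (0.90) followed Dbp closely, and Hlf (0.75) and Por (0.63) less so. Bhlhe40 had an r of 0.53 and Bhlhe41 of 0.26. Nfil3 ran opposite, at -0.76. Spearman's rank correlation on the same values was 0.94 for Usp2, 0.89 for Alas1, 0.90 for Tef, 0.70 for Hlf, 0.62 for Por, 0.60 for Bhlhe40, 0.27 for Bhlhe41 and -0.73 for Nfil3. All points share the arrays' common normalization. Of the other probe sets, r with Dbp was 0.89 for that of Usp2 and 0.57 for that of Por. It was 0.90 and 0.37 for those of Tef, and 0.77, 0.76 and 0.11 for those of Hlf, the last of each being the dimmest. Because Dbp values had a gap in the middle, each r partly sets the 5 rats above it against the 5 below, and a relation within either set was not tested.

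**Figure D2:**
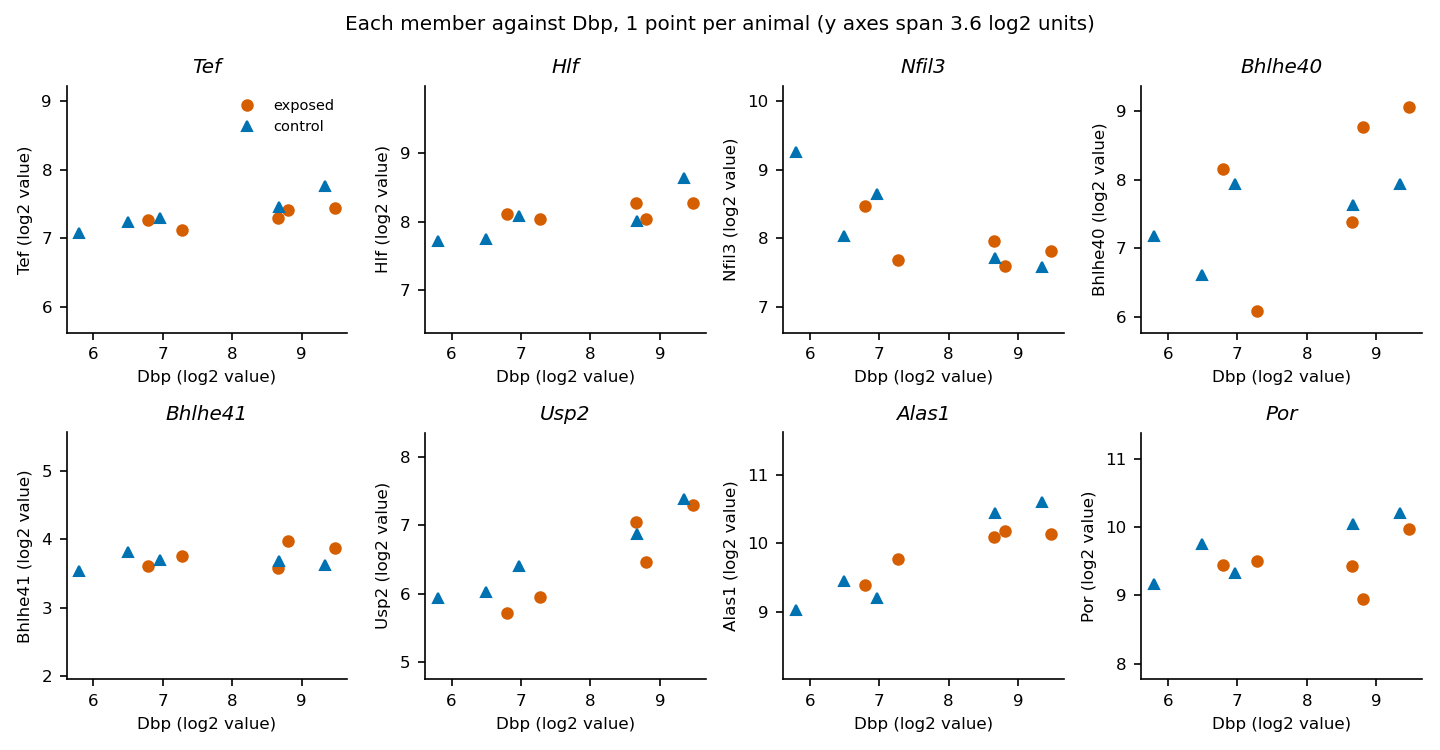
Log2 value of each of 8 members (y axes, all spanning 3.6 units) against the log2 value of Dbp (x axes), with circles for exposed and triangles for control rats. Usp2, Alas1 and Tef climb with Dbp, Nfil3 descends, and Bhlhe40 and Por scatter, with exposed rat 4 at a Dbp of 8.80 and a Por of 8.95.

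Without the 2 rats farthest from the Dbp median, exposed rat 5 and control rat 1, r was 0.94 for Alas1, 0.93 for Usp2, 0.86 for Tef, 0.67 for Hlf and -0.70 for Nfil3. It was 0.42 for Bhlhe40, 0.34 for Por and -0.07 for Bhlhe41. The r of Por also moved with single rats, to 0.49 without control rat 5 and to 0.84 without exposed rat 4. Leaving out any 1 rat, r stayed between 0.90 and 0.96 for Alas1, between 0.91 and 0.96 for Usp2 and between 0.87 and 0.96 for Tef.

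**Figure D3:**
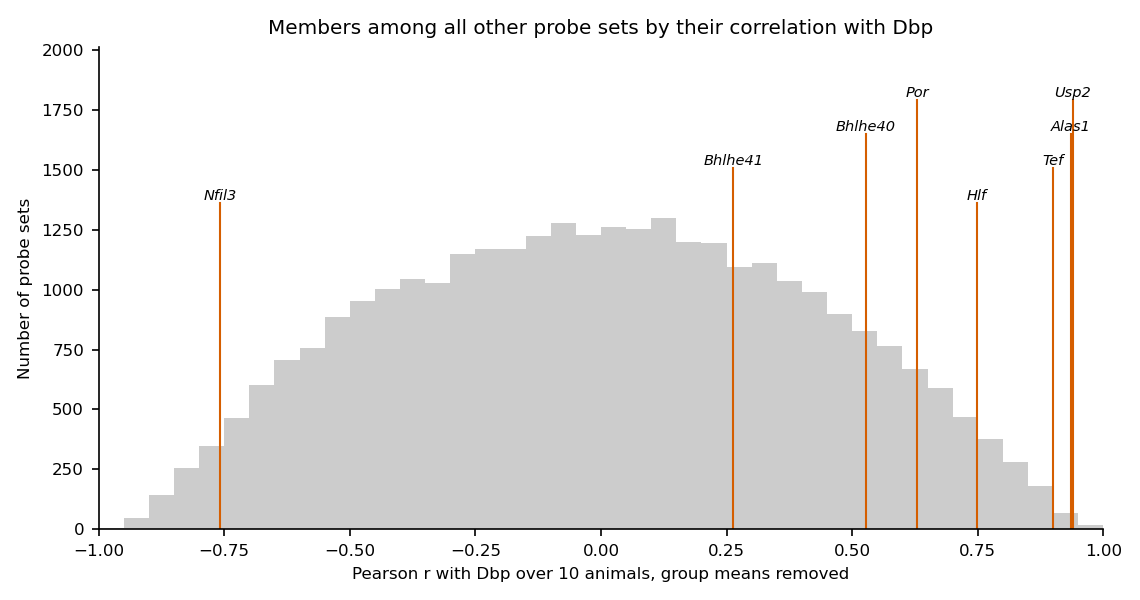
Histogram of Pearson's r with Dbp over 10 rats, group means removed (x axis), for the 31041 other probe sets (y axis, number per bin), with lines at the 8 members. Usp2, Alas1 and Tef stand at 0.90 to 0.94 in the upper tail, Nfil3 at -0.76 in the lower tail, and Bhlhe41 at 0.26 inside the bulk.

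With 10 animals, high correlations occur widely, so the members were set beside all other probe sets. Over 31041 probe sets, r with Dbp had a median of 0.0026, and its central 95% ran from -0.75 to 0.77. At least 0.9 was reached by 88 probe sets (0.283%), and -0.9 or lower by 51 (0.164%). Of the 31040 probe sets other than Dbp and the member itself, 28 had an r as high as Usp2, 32 as high as Alas1 and 86 as high as Tef. For Hlf the share was 3.04%, for Por 7.34%, for Bhlhe40 12.2% and for Bhlhe41 29.2%. For Nfil3, 2.38% of probe sets had an r as low. Since the members were chosen with their co-variation over these rats in view, these places are a description and not a test.

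Among the 9 measured members there are 36 pairs. All 8 pairs with Nfil3 had an r below 0, from -0.04 with Bhlhe40 to -0.87 with Alas1, and 26 of the other 28 pairs had an r above 0. The exceptions both involved Bhlhe41, at -0.19 with Hlf and near 0 with Por. Tef and Hlf had an r of 0.86 to each other, which was 0.44 without control rats 1 and 5. Nfil3 and Alas1, at -0.87, had -0.75 without control rats 1 and 3. Without the same 2 rats Nfil3 and Por had -0.01, against -0.63 over all 10. Nfil3 and Hlf had -0.48, which turned to 0.31 without control rats 1 and 5. For the next 2 Hlf probe sets r with Nfil3 was -0.49 and -0.43, and it was -0.43 and -0.49 without control rats 2 and 5, which lay farthest from their medians. Bhlhe40 had its highest r with Tef, at 0.61.

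**Figure D4:**
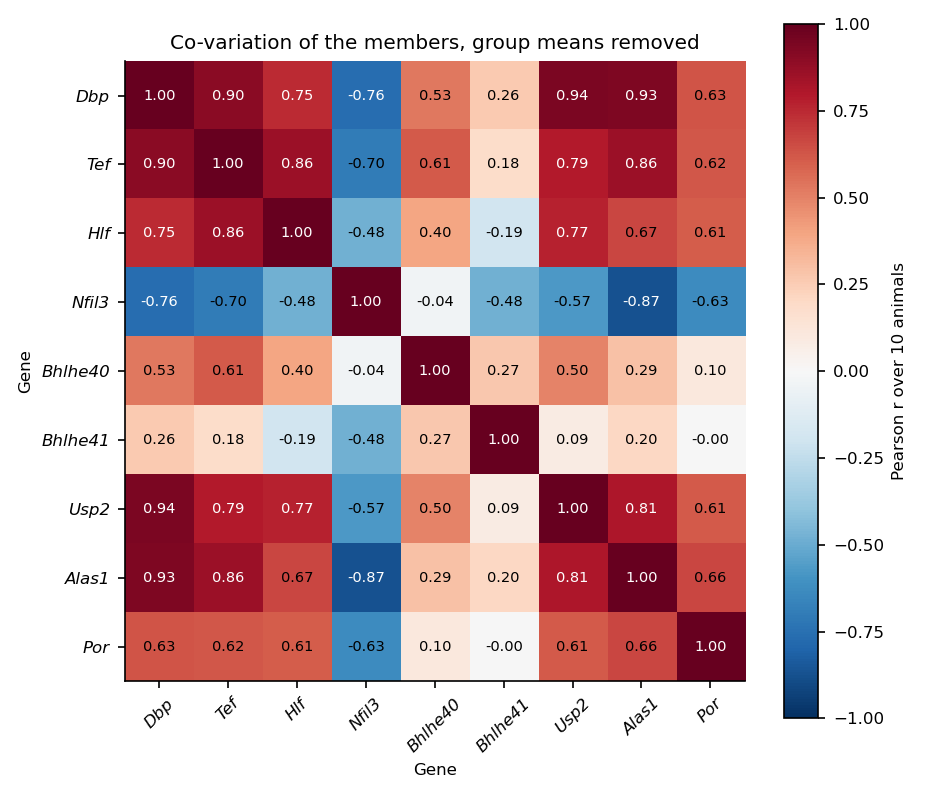
Pearson's r over 10 rats, group means removed, for each pair of the 9 measured members (both axes), with the value printed in each cell and red for positive and blue for negative r. The Nfil3 row is blue throughout (-0.87 to -0.04), Dbp, Tef, Usp2 and Alas1 form a red block (0.79 to 0.94), and Bhlhe41 is pale except against Nfil3 (-0.48).

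Other features of the arrays moved with the same animals. The levels also ran with the replicate numbers in the sample titles, whose meaning is not given in the sources used here. Tef was in the order of the numbers in both groups, and Dbp and Usp2 followed that order in control rats. With group means removed, r with the number was 0.94 for Dbp, 0.91 for Tef, 0.88 for Usp2, 0.79 for Alas1, 0.77 for Bhlhe40, 0.72 for Hlf, 0.55 for Por, 0.35 for Bhlhe41 and -0.61 for Nfil3. Of all other probe sets, 0.103% had an r of that size or more for Dbp, 0.283% for Tef and 0.631% for Usp2, against 44.3% for Bhlhe41. The spread between animals therefore cannot be told apart from whatever the numbers stand for. The 3' to 5' log2 ratio of the Gapdh and beta-actin control sets is a sign of RNA quality. In the order of the replicate numbers, the ratio was 0.545, 0.604, 0.578, 0.592 and 0.494 in exposed rats, with no steady rise. In control rats the ratio rose with the number, at 0.508, 0.578, 0.624, 0.626 and 0.735, and was the highest of all in control rat 5. Its r, with group means removed, was 0.49 with Dbp, 0.73 with Tef, 0.73 with Hlf, 0.56 with Alas1 and -0.54 with Nfil3. With this ratio also removed, an alternative added after the values were seen, r with Dbp was 0.91 for Tef, 0.66 for Hlf, 0.91 for Alas1, 0.94 for Usp2 and -0.67 for Nfil3. Markers of Kupffer cells, the macrophages of liver, had an r below 0 with Dbp for 6 of 6 measured genes, from -0.70 to -0.57. The mean of these markers was 8.15 to 9.11 in exposed and 7.81 to 9.07 in control rats, the lowest in control rat 5. Lymphocyte markers had an r below 0 for 7 of 7 genes, with means of 4.88 to 5.18 in exposed and 4.81 to 5.10 in control rats. Endothelial markers did so for 5 of 5, with means of 8.36 to 8.77 in exposed and 8.28 to 8.68 in control rats. Hepatocyte markers did so for 6 of 7, and their mean moved only between 14.2 and 14.3. These markers lay near the top of the arrays' scale, where Alb read 14.97 to 15.00 and the highest value of all was 15.00. Their small movement therefore does not show that the share of hepatocytes was steady. The means of the remaining marker lists had an r with Dbp of -0.06 for stellate cells, -0.03 for red blood cells and -0.22 for bile duct cells. The part of these cells in the members' pattern was not tested, and in bulk liver fewer cells of a type and less RNA per cell cannot be told apart.

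The comparison of exposed with control livers asks whether the effluent altered expression. No member passed limma's test adjusted over all probe sets, with adjusted p values from 0.909 to 0.995. The test called 0 of all 31042 probe sets (0%), so the members' count equals the background. With no replicate numbers in the fit, unadjusted limma p was under 0.05 for 0 of the 16 member probe sets, against 5.46% of all. In 0 of the 16 were the groups apart, against 0.892% of all, and 8 of 16 were higher in exposed rats, against 52.0% of all.

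**Figure D5:**
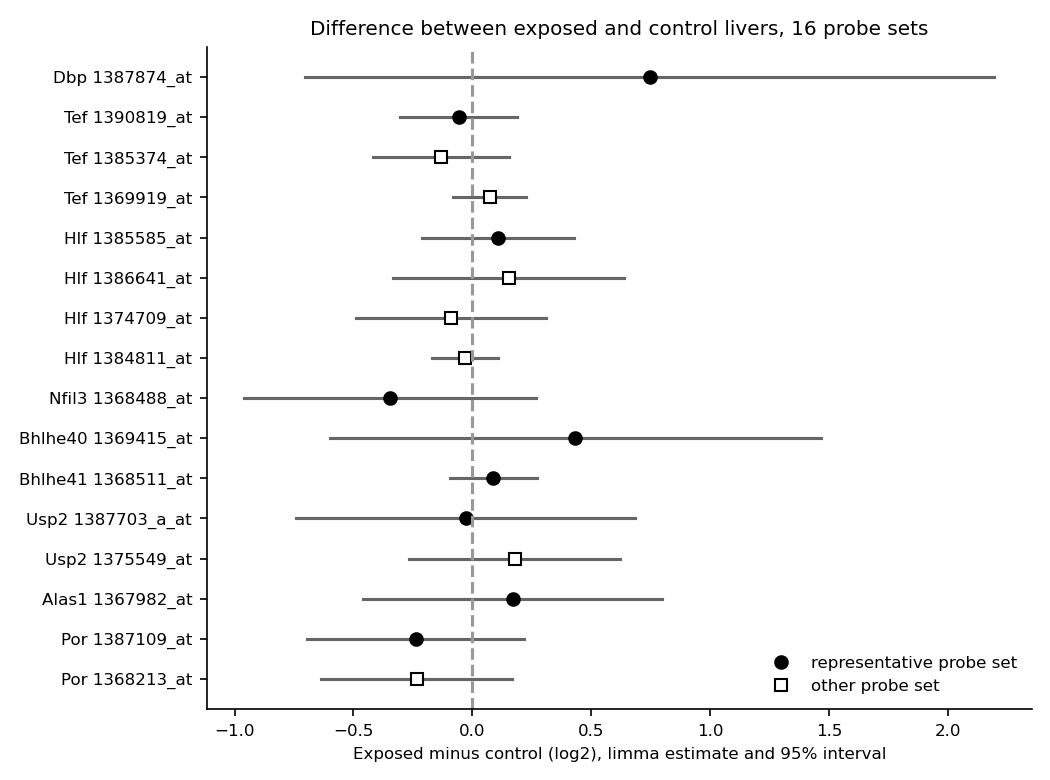
Exposed minus control on the log2 scale (x axis) for the 16 member probe sets (y axis), with limma's 95% interval; filled circles mark the representative probe set of a gene and open squares its others. In this fit, which leaves out the replicate numbers, all 16 intervals include 0. Those of Dbp (-0.70 to 2.20) and Bhlhe40 (-0.60 to 1.46) are the widest.

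Dbp averaged 8.20 ± 1.12 in exposed and 7.45 ± 1.49 in control rats (SD, n = 5 each). The difference was 0.75 ± 0.67 (SE), or 1.68-fold, with a 95% interval of 0.614-fold to 4.58-fold. That fit takes no account of the replicate numbers. With the number as a block the difference was the same and the SE was 0.24. The interval above therefore holds only for the fit without the block. Nfil3 averaged 7.90 ± 0.35 in exposed and 8.25 ± 0.70 in control rats, a difference of -0.35 ± 0.28 (interval -0.96 to 0.27). Bhlhe40 averaged 7.89 ± 1.20 in exposed and 7.46 ± 0.57 in control rats, a difference of 0.43 ± 0.48 (interval -0.60 to 1.46). Each of these differences was smaller than the SD within groups, which was 1.32 for Dbp, 0.55 for Nfil3 and 0.94 for Bhlhe40.

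For the members with less spread the intervals were narrower. Tef differed by -0.06 (interval -0.30 to 0.19), Hlf by 0.11 (-0.21 to 0.43) and Bhlhe41 by 0.09 (-0.10 to 0.27). Alas1 differed by 0.17 (-0.46 to 0.80), Por by -0.24 (-0.69 to 0.22) and Usp2 by -0.03 (-0.74 to 0.68). The intervals of Tef, Hlf, Bhlhe41, Alas1, Por and Usp2 lay inside a doubling or halving, while those of Dbp and Bhlhe40 reached past a doubling. Bhlhe41 lay above only 18.1% of probe sets by level, and whether it was bright enough to measure a change is unknown. Probe sets of a gene disagreed in sign for Tef (-0.13 and 0.07 for the others), Hlf (0.15, -0.09 and -0.03) and Usp2 (0.18).

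Single animals set the size of several differences. The Dbp difference was 0.33 without control rat 1 and 1.22 without control rat 5. That of Bhlhe40 was 0.14 without exposed rat 5 and 0.88 without exposed rat 1, and that of Nfil3 was -0.09 without control rat 1 and -0.51 without control rat 5. Alas1 gave -0.0097 without control rat 1 and 0.38 without control rat 5. Hlf gave 0.03 without control rat 1 and 0.26 without control rat 5, Por gave -0.11 without exposed rat 4 and likewise without control rat 5, and Bhlhe41 gave 0.03 without exposed rat 4. Tef gave 0.04 without control rat 5, and Usp2 gave 0.19 without control rat 5 and -0.23 without exposed rat 5.

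Genes most like Dbp were sought among 4610 other genes with a level and a spread above those of the median probe set. The 8 highest were Arhgef26 (r = 0.98), the receptor Gpr146 (0.98), Anks4b (0.97), Wdr33, a factor of mRNA 3' end formation (0.97), Usp38 (0.97), the splicing factor Srsf5 (0.97), the RNA-activated kinase Eif2ak2 (0.96) and the RNA helicase Ddx5 (0.95), over 10 rats with group means removed. Their ranges over the animals, 0.49 to 0.99, were narrower than that of Dbp. The 4 lowest were Slc45a3 (-0.95), the cell cycle inhibitor Cdkn1a (-0.95), Bmal1 (-0.95) and Tcim (-0.94). Without exposed rat 5 and control rat 1, r stayed between 0.93 and 0.98 for the first 8 and between -0.98 and -0.93 for the last 4. With group means kept, r for the first 8 ran from 0.75 for Wdr33, 0.82 for Usp38 and 0.84 for Ddx5 up to 0.97 for Anks4b. It was -0.94 for each of the last 4. Arhgef26, Gpr146, Wdr33, Usp38, Ddx5 and Cdkn1a have 2 probe sets each, and only the brighter is given here.

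Bmal1, the activator upstream of Dbp, read 6.07 to 8.08 over the animals, a range of 2.01. It averaged 6.99 ± 0.63 in exposed and 7.52 ± 0.53 in control rats (SD, n = 5 each), a difference of -0.53 ± 0.30 (SE; limma adjusted p 0.880). Of 14 measured core clock genes limma called 0, and the 2 with the smallest p were Rora (-0.35 ± 0.16) and Clock (-0.22 ± 0.11). Nr1d1 and Nr1d2, the REV-ERB repressors that silence Nfil3 and Bmal1, had r of 0.73 and 0.84 with Dbp, and Cry2 had 0.84. Per2 and Per3 had -0.16 and -0.27, and Per1 had 0.11. Core clock genes were higher in exposed rats for 6 of 14, with a median difference of -0.05, against -0.0021 over all 14217 genes.

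Among genes that PAR bZIP factors are reported to control, correlations with Dbp ran both ways, 8 above 0 and 6 below. Of 14 measured, limma called 0 and 4 were higher in exposed rats, with a median difference of -0.04. Named by their p, Ces1d, a carboxylesterase, differed by -0.25 ± 0.14 (SE), the nuclear receptor Nr1i3 (CAR) by -0.25 ± 0.24 and Ppara by 0.10 ± 0.11. Their r with Dbp was -0.31, -0.01 and 0.35, and the median of the list was 0.11, against -0.04 over all genes. Over the list r ran from -0.72 for Cyp2a3 to 0.67 for Cpt1a, and Cyp7a1 had 0.63. The probe set of Cyp2a3 was dim, at 3.56 to 4.00, a level above that of only 20.7% of probe sets.

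The lists around Alas1 and Por mostly had an r below 0 with Dbp, in 7 of 9 genes of the heme pathway and 4 of 5 of electron transfer. The first list also holds Hmox1, which degrades heme (r = -0.57), and the second Fdx1, a ferredoxin of mitochondria that serves P450 enzymes there rather than through Por (-0.14). Of 9 measured genes of the heme pathway 0 passed and 4 were higher in exposed rats, with a median difference of -0.0040. Slc25a38, a mitochondrial glycine carrier, differed by -0.21 ± 0.09 (SE), Uros by 0.08 ± 0.08 and Abcb10 by 0.12 ± 0.14. Their median r with Dbp was -0.30, against 0.93 for Alas1. Of 5 measured genes of electron transfer to P450 enzymes 0 passed, with a median difference of -0.00095 and a median r of -0.29. Cytochrome b5 (Cyb5a) differed by -0.07 ± 0.06, Fdx1 by -0.05 ± 0.09 and Cyb5b by 0.04 ± 0.12.

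Lists of other signals that reach these genes gave 0 calls as well. Of 12 other clock-driven genes 4 were higher in exposed rats, with a median difference of -0.08, and Hspb1 differed by -0.49 ± 0.16 (SE), Lpin1 by -0.38 ± 0.17 and Nampt by -0.36 ± 0.18. Of 12 glucocorticoid and fasting genes 4 were higher, with a median of -0.10, and Sds differed by -0.55 ± 0.19, Fkbp5 by -0.25 ± 0.10 and Dusp1 by 0.52 ± 0.26. Of 7 genes of feeding and insulin 7 were higher, against 6978 of all 14217 genes, and the list was not tested as a set. The median difference of these 7 was 0.28, and it ran from 0.17 without exposed rat 3 to 0.37 without control rat 3. Acly differed by 0.32 ± 0.14, Pnpla3 by 0.87 ± 0.41 and Fasn by 0.31 ± 0.16. Their mean had an r of 0.02 with Dbp. Limma adjusted p values of all these genes were at least 0.879.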

How the data were processed

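Liver RNA of 5 exposed and 5 control rats was measured on Affymetrix 3' arrays, 1 per animal. The deposited log2 values per probe set come from RMA, which the authors ran under R 2.8.1, as stated per the submitters' processing notes. Their range shows the log2 scale. The probe set definitions used are not given in the sources used here. Of 31099 probe sets, 57 control sets were left out. The platform annotation named 1 gene for 20826 probe sets, and the Entrez numbers of all 9 measured members matched RefSeq (GRCr8). The brightest probe set on average stood for its gene.

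Groups were compared with limma 3.58.1 under R 4.3.3 (moderated linear fit, two-sided, Benjamini-Hochberg adjustment over 31042 probe sets, threshold 0.05). The fit was tested on 10 simulated data sets of 31042 probe sets, where 91.2% of 1.5-fold and 98.8% of 2-fold changes were called, with a mean of 11.1 false calls per set. Each simulated set held many changed probe sets, by up to 4-fold, with noise drawn independently for each probe set. The adjustment is stricter where few probe sets change, so a lone change would be called less often. The rates are for probe sets at large, whose median SD was 0.13, and not for the members, whose median SD was 0.55. Correlations are over 10 rats and carry no p. Promoter windows cover 250 bases before the start used in RefSeq's table, which for Tef, Bhlhe41, Ciart, Usp2 and Por is not the outermost end of the gene.

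Samples were grouped by their titles. Members and lists were chosen with earlier results of these data known. Text names all members, up to 3 genes per list with the smallest p, and the 8 genes most like and 4 most opposite to Dbp; others named from the lists were chosen after their values were seen. The alternatives tried were dropping dim probe sets, median centring, quantile normalization, the replicate number as a block, array weights, a trended and robust prior, RNA quality as a covariate, all probe sets of a gene, rank correlation and leaving out each array. The number of arrays limits the precision. Whether animals with the same replicate number belong together was checked over all probe sets. The correlation of their deviations from group means was -0.070 to 0.094, and the main fit did not take the numbers as pairs. Such a check cannot tell whether the numbers matter for a few genes. For Dbp, r with the number was 0.94, and whether the members should be paired by number was not tested.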

Additional observations from a re-analysis of the deposited data

Results flagged for a closer look

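Each group of 5 was searched for an animal whose gap to its nearest neighbour exceeded 0.71 of the group's range, a limit passed by chance in about 1 of 20 groups. This held for 3 of 96 groups of named probe sets and for 0 of the 32 groups of member probe sets. Control rat 1 read 11.33 for Fdx1, the mitochondrial ferredoxin (other controls 10.96 to 11.04). Control rat 5 read 8.88 for Cyb5b (other controls 9.30 to 9.39). Exposed rat 4 read 10.95 for Acly (other exposed rats 11.48 to 11.56).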

How the results depend on the processing

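Over the 156 values that alternatives gave for the 9 members' differences, 147 kept their direction and 0 passed the threshold, with adjusted p from 0.764 upward. The 9 turned ones had small differences. Tef gave 0.057 and Usp2 0.14 with RNA quality as a covariate, and Usp2 gave 0.075 as the mean of its probe sets. The other turned values came from leaving out 1 array, at 0.041 for Tef, 0.057 to 0.19 for Usp2 and -0.0097 for Alas1. Over all left-out arrays, turned or not, the difference was -0.13 to 0.041 for Tef, -0.23 to 0.19 for Usp2 and -0.0097 to 0.38 for Alas1. RNA quality as a covariate also moved larger differences, to 1.25 for Dbp, -0.57 for Nfil3, 0.26 for Hlf, 0.41 for Alas1 and -0.14 for Por, with adjusted p from 0.940 to 0.973. The count of all probe sets past the threshold was 0 to 1 when 1 array was left out, the 1 without exposed rat 1, and 0 otherwise; members and lists stayed at 0. With group means kept, r with Dbp was 0.80 for Tef and 0.89 for Usp2. Without the 2 animals farthest from the Dbp median it was -0.066 for Bhlhe41. With the replicate number as a block the Dbp difference was 0.75 (limma adjusted p 0.894), with an SE of 0.24 against 0.67 without it. Dbp was higher in the exposed rat of all 5 same-numbered pairs. At the adjusted threshold the block changed no call, and unadjusted p values under the block are not given here. Over all probe sets, of 5 exposed rats 0 correlated best with the control rat of their own number. List medians near 0 also changed sign, the PAR bZIP target list to 0.045 without control rat 5. Under the filter on low values Bhlhe41 was not tested. Wherever a value turned, the cause was not tested.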

Other observations

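The C/EBP factors, bZIP activators of liver genes outside the list, were looked at after Cebpa was seen among genes with a high r with Dbp. All 5 probe sets of Cebpa had an r of 0.88 to 0.96 with Dbp over 10 rats, group means removed. The brightest averaged 10.49 ± 0.33 in exposed and 10.38 ± 0.51 in control rats (SD, n = 5 each), a difference of 0.11 ± 0.22 (SE; limma adjusted p 0.963), and ran from 9.83 to 10.99. Cebpb had an r of 0.90 and read 9.17 to 10.33. The 3 probe sets of Cebpd had r of -0.66, -0.92 and 0.49. They read 6.09 to 6.61, 4.34 to 4.78 and 3.43 to 3.86 in that order, the last 2 below the median of every array. The 2 probe sets of Cebpg had r of 0.50 and 0.15. Cebpe had 0.36. These genes were chosen after their values were seen, so their r is a description.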
